A study of Drosophila melanogaster with 6 samples.

Results

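Peaks of hrp36 and hrp48 on Uextra are described here. In the genome build dm3, Uextra joins scaffolds that have no chromosomal position end to end into one sequence. The members are all peaks of both lists whose sequence name is exactly Uextra. They number 525 of 1020 hrp36 peaks and 559 of 938 hrp48 peaks, or 1084 of the 1958 peaks in all.

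The series studies linker histone H1 and RNAs found with heterochromatin. It comprised 2 hrp36 ChIP-seq samples, 2 hrp48 ChIP-seq samples and 2 inputs of 10% of the chromatin, which received no antibody. Every sample came from S2 cells, an established Drosophila melanogaster line of embryonic origin, and the labels give no genotype change or treatment. The labels describe the cells as a late-stage primary culture aged 20 to 24 hours. Fixation was with 1.8% formaldehyde over 10 minutes, and chromatin was sheared by sonication. Each antibody is represented by 1 deposited peak list, which gives positions only. There is no value per replicate or per input, no score and no read depth, so the replicate error is unknown and no test between the proteins could be made. Intervals below are 95% exact binomial intervals over peaks (order-statistic intervals for medians), which cover the number of peaks only.

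Both proteins are heterogeneous nuclear ribonucleoproteins. These are abundant nuclear proteins that bind RNA through RNA recognition motifs, coat nascent transcripts and take part in splicing, export and localisation of mRNA. In flies hrp36 is known from nuclear speckles that form on a heat-shock long noncoding RNA, and hrp48 from splicing control and from the repression of localised maternal mRNAs. A ChIP peak of such a protein can come from RNA still attached to chromatin at its gene, not only from contact with DNA. Unplaced fly scaffolds are rich in transposon and satellite copies from heterochromatin. Copies of a repeat share reads, so a peak there need not stand for a locus of its own, and peaks on different scaffolds need not be independent. Positions along Uextra have no chromosomal meaning, and no gene or repeat was assigned to a peak.

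More than any other sequence, Uextra was where peaks of both lists lay, but these peaks were narrow. By number, it held 51.5% of the hrp36 list (48.4 to 54.6%) and 59.6% of the hrp48 list (56.4 to 62.8%). By length, its 710 kb of hrp36 peaks were 26.1% of the covered bases, and its 758 kb of hrp48 peaks were 29.7%. The hrp36 minus hrp48 difference was -8.12 percentage points by number and -3.62 points by length. Most of the other peaks lay on the arms, with 33.9% of hrp36 peaks and 23.2% of hrp48 peaks. The other unplaced sequence, U, held 8.14% and 8.96%, and the mapped heterochromatic sequences held 6.47% and 8.21%. The shares on Uextra thus depend on the number of peaks elsewhere, chiefly on the arms, as well as on that of Uextra peaks.

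Widths on Uextra fell in a tight range that was nearly the same for both proteins. For hrp36 the median was 1292 bp (1261 to 1324 bp) with quartiles at 1161 and 1428 bp. For hrp48 it was 1290 bp (1261 to 1309 bp) with quartiles at 1151.5 and 1430 bp. Of the 525 hrp36 peaks, 33 were under 1 kb, 473 were from 1 kb to under 2 kb and 19 were 2 kb or wider. Of the 559 hrp48 peaks, these classes held 34, 504 and 21. The narrowest peak of each list was absent from the other list. It was Uextra:4610474-4611104 for hrp36 (631 bp) and Uextra:27735228-27735898 for hrp48 (671 bp).

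Peaks elsewhere were wider and more varied. The median hrp36 width was 1723 bp on U, the other sequence of unplaced scaffolds, 4683.5 bp on the mapped heterochromatic (Het) sequences and 3850 bp on the arms. For hrp48 these medians were 1684, 4180 and 5745 bp. Peaks under 2 kb made up 96.4% of hrp36 and 96.2% of hrp48 peaks on Uextra, against 59.0% and 59.5% on U, and 32.4% and 6.88% on the arms. Scaffold borders were not used here.

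**Figure D1:**
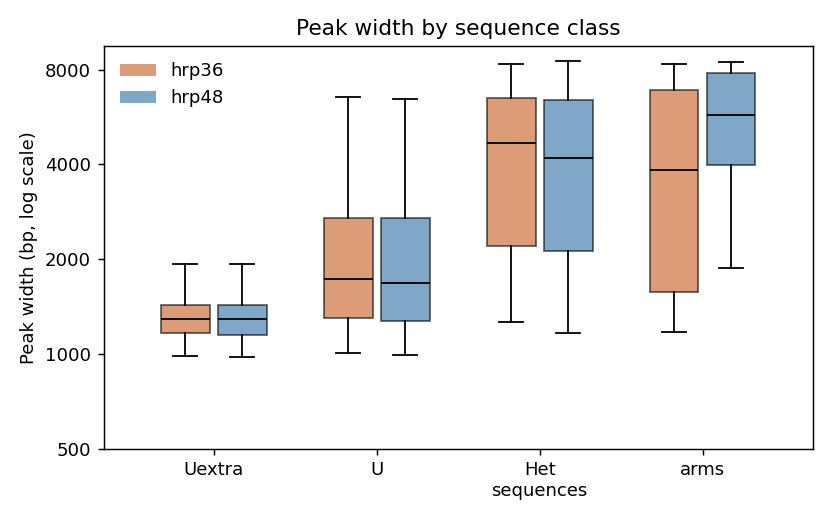
Peak width in bp on a log scale for hrp36 (left box of each pair) and hrp48 (right box), on Uextra, U, the Het sequences and the arms. Boxes span the quartiles with the median as a line, and whiskers reach the 5th and 95th percentiles. Both Uextra boxes lie between 1151.5 and 1430 bp, below the medians of every other class.

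In both lists, median peak width was lower in each later part of Uextra. The sequence was divided into 4 equal stretches of its extent, which ends with the last peak at base 28677462 in both lists. From low to high positions, the median hrp36 width was 1429 bp (1351 to 1511 bp, n = 127), 1323 bp (1274 to 1343 bp, n = 162), 1251 bp (1208 to 1295 bp, n = 151) and 1142 bp (1101 to 1205 bp, n = 85). For hrp48 it was 1416 bp (1377 to 1472 bp, n = 133), 1308.5 bp (1268 to 1348 bp, n = 168), 1260 bp (1210 to 1297 bp, n = 161) and 1145 bp (1082 to 1194 bp, n = 97). The intervals of the first and the last stretch did not overlap in either list. The lists share most sites, so they are not separate evidence of this order.

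The ends of the sequence differed most, though over few peaks. Beyond 28 Mb, the median was 769.5 bp over 4 hrp36 peaks and 842.5 bp over 6 hrp48 peaks. In the first Mb, it was 1884 bp over 12 hrp36 peaks and 1892 bp over 15 hrp48 peaks. The decline was not even at this scale. From 27 to 28 Mb, the median was 1054 bp over 7 hrp36 peaks but 1499 bp over 9 hrp48 peaks. Peaks of 2 kb or more were spread over the stretches as 8, 8, 3 and 0 for hrp36 and as 9, 7, 4 and 1 for hrp48. Over single peaks, width and position had a Spearman rho of -0.34 for hrp36 (n = 525) and -0.32 for hrp48 (n = 559), given as a description because neighbouring peaks can share a scaffold. U ran the same way, with 5328 bp in its first stretch (n = 11) and 1463 bp in its last (n = 35) for hrp36. For hrp48 on U the values were 5097 bp (n = 12) and 1508.5 bp (n = 38).

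**Figure D2:**
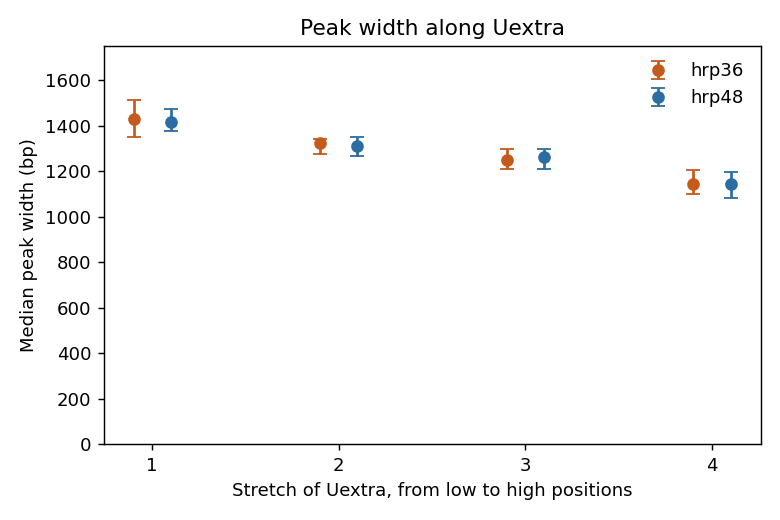
Median width in bp of hrp36 (left point of each pair) and hrp48 (right point) peaks in 4 equal stretches of Uextra, ordered from low to high positions. Bars are 95% order-statistic intervals over peaks. Medians run from 1429 to 1142 bp for hrp36 and from 1416 to 1145 bp for hrp48.

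Most Uextra sites were in both lists. Counting a peak as shared when it overlapped a peak of the other list by at least 1 bp, 500 of 525 hrp36 peaks (95.2%, 93.1 to 96.9%) and 500 of 559 hrp48 peaks (89.4%, 86.6 to 91.9%) were shared. Over all sequences the same rule gave 82.2% of hrp36 and 89.3% of hrp48 peaks, so for hrp48 the Uextra share was that of the list as a whole. For hrp36 the Uextra share stood above the 68.3% (64.0 to 72.4%) of peaks outside Uextra, while U had 95.2% (88.1 to 98.7%) and the Het sequences had 92.4% (83.2 to 97.5%). The lower value outside Uextra was that of the arms, 57.2% (51.8 to 62.5%). In bases, the overlap of 664 kb made up 93.4% of the Uextra bases under hrp36 peaks and 87.6% of those under hrp48 peaks.

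The match was one to one. Each of the 500 shared hrp36 peaks overlapped a single hrp48 peak and the reverse, and 0 peaks bridged more than 1 peak of the other list. Together the lists defined 584 sites, of which 500 (85.6%) were in both, 25 (4.28%) only in hrp36 and 59 (10.1%) only in hrp48.

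The widest sites were in both lists. The widest peak of both lists was the same site, Uextra:204181-208674 for hrp36 (4494 bp) and Uextra:204175-208690 for hrp48 (4516 bp), whose common part made up 99.5% of their joint span. Its close neighbour was the second widest, Uextra:195570-199543 for hrp36 (3974 bp) and Uextra:195539-199613 for hrp48 (4075 bp). The third lay far along the sequence, at Uextra:16981463-16985057 for hrp36 (3595 bp) and Uextra:16981501-16985073 for hrp48 (3573 bp). The fourth was at Uextra:271443-274591 for hrp36 (3149 bp) and Uextra:271400-274612 for hrp48 (3213 bp). The fifth was at Uextra:12911775-12914562 for hrp36 (2788 bp) and Uextra:12911690-12914541 for hrp48 (2852 bp). Sites were ranked here by the wider peak of each pair. By hrp36 width alone, the fifth would be Uextra:791542-794342 (2801 bp), which lies in the first Mb. Of the 5 sites ranked by the wider peak, 3 lay in the first Mb. The 5 sites were picked among shared sites, but no list-only peak was as wide. The widest list-only peak was 2218 bp for hrp36 and 2123 bp for hrp48. Among peaks of 2 kb or more, 18 of 19 hrp36 and 20 of 21 hrp48 peaks were shared. Over all Uextra peaks these shares were 95.2% and 89.4%, so wide hrp36 peaks were shared about as often as the rest. For hrp48 the comparison rests on 21 peaks.

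Borders of shared sites were placed close together in the lists. Over the 1000 borders of the 500 pairs, the median difference was 16.5 bp (15 to 18 bp), the quartiles were 6 and 36 bp, and 93.6% lay within 100 bp. The interval of this median counts both borders of a pair separately, as do those by peak width below. As many as 56 borders were at the identical base and 376 were within 10 bp. Both borders coincided in 4 pairs, at Uextra:5608756-5609542, Uextra:19698660-19699727, Uextra:20049279-20050475 and Uextra:22208395-22209289. The median common part was 96.9% of the joint span (quartiles 94.0 and 98.3%).

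Border differences were also set against the width of the shared peaks, without a test. The median border difference was 1.28% of the median hrp36 width of shared peaks on Uextra, 0.929% on U, 0.834% on the Het sequences and 0.613% on the arms. In bases it was 16.5 bp on Uextra, about as much on U (16 bp), 40 bp on the Het sequences and 36 bp on the arms. Within Uextra, the difference had overlapping intervals for hrp36 peaks under 1 kb (11.5 bp, 2 to 22 bp, 31 pairs), from 1 kb to under 2 kb (17 bp, 15 to 19 bp, 451 pairs) and of 2 kb or more (19 bp, 11 to 38 bp, 18 pairs).

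**Figure D3:**
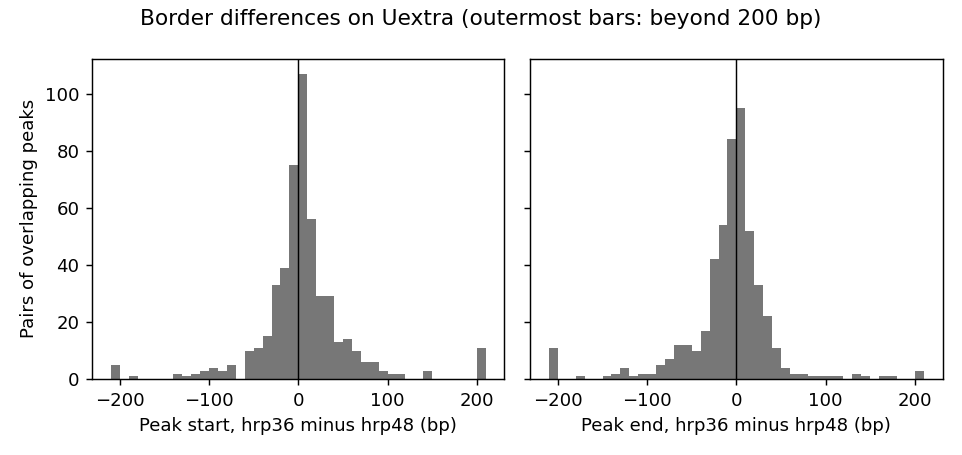
Histograms of the start (left) and end (right) of the hrp36 peak minus that of the hrp48 peak, in bp, over the 500 overlapping Uextra pairs. Bars are 10 bp wide and the outermost bars collect all differences beyond 200 bp, and 93.6% of borders lie within 100 bp of 0.

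Larger differences were at a single border in most pairs. In 64 pairs (12.8%) the larger border difference was above 100 bp, and in 57 of these the other border lay within 50 bp. The 20 pairs above 500 bp showed this as well, since 18 of them had the other border within 50 bp and 9 within 10 bp. Over all 500 pairs, the border that differed less was within 50 bp in 487 (97.4%), so a second border in place was not particular to these pairs. The start was the differing border in 10 of the 20 and the end in the other 10.

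The largest differences mostly left the hrp36 peak narrower. Lower cut-offs gave smaller majorities than 500 bp did, without a steady order and with overlapping intervals. Above 50 bp, the hrp36 peak was wider in 53 pairs and the hrp48 peak in 104 (65.8% of the 158, 57.9 to 73.2%). Above 100 bp, the hrp36 peak was wider in 24 pairs and the hrp48 peak in 40 (62.5% of the 64, 49.5 to 74.3%). Above 200 bp, the counts were 8 and 22 (73.3% of the 30, 54.1 to 87.7%). Above 500 bp, the hrp36 peak was wider in 4 pairs and the hrp48 peak in 16 (80.0% of the 20, 56.3 to 94.3%). Among the 342 pairs within 50 bp at both borders, hrp36 was wider in 166 and hrp48 in 168. Over all 500 pairs the counts were 219 and 272, with 9 equal and a median difference, hrp36 minus hrp48, of -6 bp (-11 to 0 bp). In the 16 pairs the width difference, hrp36 minus hrp48, ran from -748 to -512 bp, the smaller end being set by the choice of pairs. Their median width was 1217 bp for hrp36 and 1842.5 bp for hrp48. The 4 opposite pairs had medians of 1984 bp for hrp36 and 1391.5 bp for hrp48.

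The 3 pairs that differed most show both directions. At the first, hrp36 covered Uextra:3385530-3387497 (1968 bp) and hrp48 Uextra:3385530-3386393 (864 bp), with the same start and ends 1104 bp apart. At the second, hrp36 covered Uextra:13753915-13756588 (2674 bp) and hrp48 Uextra:13754876-13756588 (1713 bp), with the same end and starts 961 bp apart. At the third, hrp36 covered Uextra:10948753-10949921 (1169 bp) and hrp48 Uextra:10947984-10949900 (1917 bp), with starts 769 bp and ends 21 bp apart. The hrp36 peak was the wider one in the first and second of these.

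**Figure D4:**
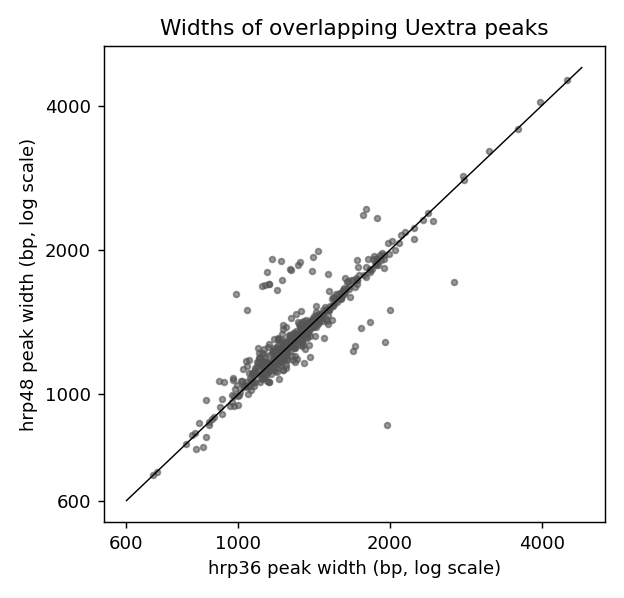
Width of the hrp48 peak against the width of the hrp36 peak in bp, both on log scales, for the 500 overlapping Uextra pairs. The line marks equal widths. Of the 500 points, 9 lie exactly on it, 272 above and 219 below. Those above it include the 16 pairs with a border difference above 500 bp and a wider hrp48 peak. In these 16, the width difference, hrp36 minus hrp48, ran from -748 to -512 bp.

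On Uextra, 25 hrp36 peaks (4.76%, 3.11 to 6.95%) and 59 hrp48 peaks (10.6%, 8.13 to 13.4%) had no overlap in the other list. Over all sequences, 182 of 1020 hrp36 peaks (17.8%) and 100 of 938 hrp48 peaks (10.7%) were list-only, so the hrp48 share on Uextra was near that of the whole list. Uextra held 13.7% of all hrp36-only peaks (9.09 to 19.6%), below the 51.5% of all hrp36 peaks it held. For hrp48 these values were 59.0% (48.7 to 68.7%) and 59.6%, about the same.

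Most hrp48-only peaks were at the narrow end of their list. On Uextra they had a median width of 1125 bp (1080 to 1155 bp), and the shared hrp48 peaks one of 1306.5 bp (1286 to 1334 bp). The corresponding hrp36 medians were 1199 bp for list-only peaks (1097 to 1429 bp) and 1293 bp for shared peaks (1266 to 1326 bp), with overlapping intervals. The Uextra peaks of each list were ordered by width and divided into 4 classes of about equal size. The narrowest class held 37 of the 59 hrp48-only peaks (62.7%, 49.1 to 75.0%). There, 26.4% of hrp48 peaks (37 of 140, 19.3 to 34.5%) were list-only, against 8.51%, 3.60% and 3.60% in the next 3 classes in order of width. For hrp36 the list-only share was 7.58% in the narrowest class (10 of 132, 3.69 to 13.5%), then 3.79%, 1.54% and 6.11%.

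**Figure D5:**
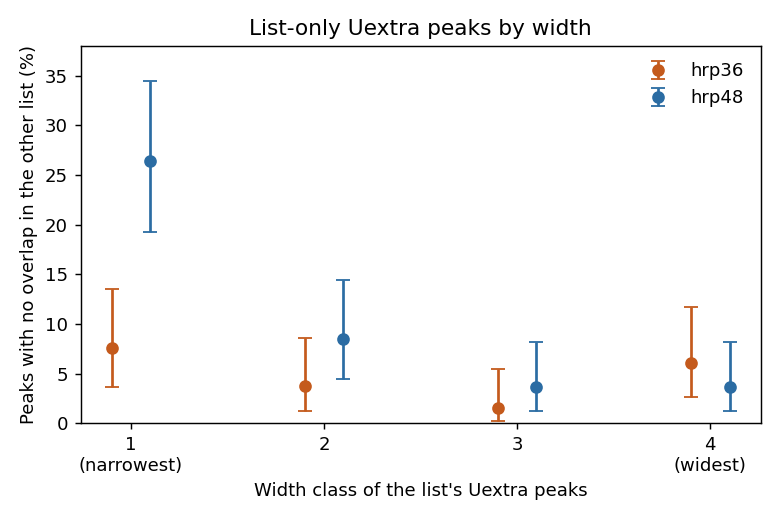
Percentage of Uextra peaks with no overlap in the other list, in 4 width classes of the list's Uextra peaks from narrowest to widest, for hrp36 (left point of each pair) and hrp48 (right point). Bars are exact 95% binomial intervals over peaks. The narrowest hrp48 class, at 26.4%, stands above the other hrp48 classes.

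List-only peaks were scattered along the sequence. Over 29 windows of 1 Mb, hrp36-only peaks were in 19 windows, with at most 3 in a window, and hrp48-only peaks were in 26, with at most 4. By stretch, from low to high positions, they made up 6.30%, 4.94%, 2.65% and 5.88% of hrp36 peaks, and 10.5%, 8.33%, 8.70% and 17.5% of hrp48 peaks. The intervals of the hrp48 shares in the last stretch (10.6 to 26.6%) and the first (5.88 to 17.0%) overlapped. Within each stretch, hrp48-only peaks had a lower median width than shared hrp48 peaks, from 1031 against 1186 bp in the last to 1233 against 1434 bp in the first.

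List-only peaks were mostly separate from peaks of the other list by several kb. The gap to the nearest one had a median of 16.5 kb for hrp36-only peaks and 22.4 kb for hrp48-only peaks, with shortest gaps of 487 and 464 bp. Within 1 kb of a peak of the other list were 3 of 25 hrp36-only peaks and 3 of 59 hrp48-only peaks. Within 10 kb were 11 hrp36-only peaks (44.0%, 24.4 to 65.1%) and 24 hrp48-only peaks (40.7%, 28.1 to 54.3%). For comparison, 31.8% of shared hrp36 peaks and 29.8% of shared hrp48 peaks had a peak of the other list within 10 kb besides the one they overlapped. Both of these values lie within the intervals of the list-only shares. In 3 places an hrp36-only and an hrp48-only peak lay within 10 kb of each other. The closest were Uextra:17362660-17364171 in the hrp36 list (1512 bp) and Uextra:17367639-17369198 in the hrp48 list (1560 bp), 3467 bp apart.

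Each list had 1 list-only peak of 2 kb or more. For hrp36 the widest was Uextra:5348301-5350518 (2218 bp), which lay 891 bp from an hrp48 peak. The next were Uextra:18319657-18321319 (1663 bp) and Uextra:1404502-1406126 (1625 bp), followed by the peak of 1512 bp above and Uextra:26186959-26188463 (1505 bp). For hrp48 the widest was Uextra:2046958-2049080 (2123 bp), 56458 bp from the nearest hrp36 peak. The next were Uextra:11737105-11739007 (1903 bp), Uextra:27017818-27019385 (1568 bp), the peak of 1560 bp above and Uextra:7952100-7953629 (1530 bp).

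Peaks were found along the whole of Uextra at similar numbers in both lists. Over the 28 complete windows of 1 Mb, the median was 18 hrp36 peaks (15 to 22) and 19 hrp48 peaks (16 to 23). The range was 7 to 36 for hrp36 and 9 to 37 for hrp48. Over all 29 windows, hrp36 had more peaks in 2, hrp48 had more in 19 and the counts were equal in 8, with a difference of at most 3. The window from 13 to 14 Mb held the most in each list. The last stretch held the fewest, with 85 hrp36 and 97 hrp48 peaks.

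At 100 kb, 237 of 287 windows held an hrp36 peak (82.6%) and 245 held an hrp48 peak (85.4%), of which 231 held both. The densest window, from 13.4 to 13.5 Mb, had 7 peaks of each list, covering 9.84 kb for hrp36 and 9.81 kb for hrp48. The second, from 23.8 to 23.9 Mb, had 6 hrp36 and 7 hrp48 peaks, of which 1 was hrp48-only. The third, from 13.7 to 13.8 Mb, had 6 of each, all shared.

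Some sites came in close pairs, of which most were in both lists, as were most Uextra peaks. The gap between successive peaks had a median of 38.2 kb for hrp36 (quartiles 15.8 and 69.3 kb) and 35.3 kb for hrp48 (14.5 and 65.8 kb). Another peak of the same list lay within 10 kb of 30.1% of hrp36 peaks (26.2 to 34.2%) and 32.4% of hrp48 peaks (28.5 to 36.4%). Gaps of at most 1 kb separated 12 pairs of hrp36 neighbours and 11 pairs of hrp48 neighbours, and 8 of these pairs were in both lists. The tightest was Uextra:5607530-5608673 and Uextra:5608756-5609542 in the hrp36 list, with a gap of 82 bp. The hrp48 list held it as Uextra:5607528-5608673 and Uextra:5608756-5609542, also with a gap of 82 bp. In 3 hrp36 and 3 hrp48 pairs of neighbours, one member was shared and the other was list-only. Of all Uextra peaks, 95.2% of hrp36 and 89.4% of hrp48 peaks were shared. Presence in both lists was thus not particular to close pairs.

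Many peaks had the exact width of another peak of their list. On Uextra the 525 hrp36 peaks had 378 different widths and the 559 hrp48 peaks had 411. A width shared with at least 1 other peak of the list was found for 255 hrp36 peaks (48.6%) and 263 hrp48 peaks (47.0%), and how often unrelated widths in so tight a range would coincide was not tested. Widths found at least 3 times numbered 30 in the hrp36 list (99 peaks) and 28 in the hrp48 list (89 peaks). The most frequent were 1197 and 1332 bp in the hrp36 list, with 5 peaks each, followed by 1176 bp with 4. In the hrp48 list they were 1334 bp with 5 peaks and 1150 and 1299 bp with 4 each.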

How the data were processed

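The authors deposited 1 peak list per antibody, with 4 columns and no header (sequence, start, end, peak name). Positions are in base pairs of dm3, the build those notes name. The tools named, per the submitters' processing notes, are MACS 1.4.2 and Bowtie2 2.2.2. Their settings, the pooling of replicates and the control of each peak call are not given in the sources used here, and depth is unknown. Starts were read as counted from 0 and are printed counted from 1.

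Lists were compared in Python 3.11.15 with pandas 2.3.3 and scipy 1.17.1. The overlap code was tested on simulated intervals and checked with bedtools 2.31.1. Intervals are Clopper-Pearson for shares and binomial order-statistic intervals for medians. Those of differences between groups of peaks, used only for the alternatives, subtract opposite ends of such intervals. Windows and stretches take a peak by its midpoint. No dm3 genome, scaffold map or annotation was used here, so no sequence, scaffold border or gene is given.

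Members and lists were chosen with earlier results of these data known. The rule for named regions took the 5 widest shared sites, the 5 widest list-only peaks of each list, the 3 largest border differences, the narrowest and widest peaks, up to 3 identical pairs by position, and the 3 densest windows of 100 kb. All 4 identical pairs are printed, and the tightest pair of neighbours and the closest list-only peaks were chosen after their values were seen. The stretches, width classes and border classes were also chosen then. Alternatives covered the overlap rule, widths, merging, bases, distance and window size.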

Additional observations from a re-analysis of the deposited data

How the results depend on the processing

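Of 42 alternatives to 17 results, 31 stayed within the interval of the reported value, 11 moved outside it and 0 turned in direction. For differences between groups of peaks, the interval was made by subtracting opposite interval ends of the groups. It is wider than a 95% interval of the difference. The 8 on width along Uextra and on the narrowest width class were chosen after seeing the data, and all 8 stayed within such wide intervals. Each of the 8 kept most of the same peaks, so this was likely beforehand and is weak support. The share of each list on Uextra was 24.9% for hrp36 and 28.4% for hrp48 among peaks at least as wide as the median of their list, and 26.1% and 29.7% in covered bases. With overlap of 90% of both peaks required, 86.3% of hrp36 and 81.0% of hrp48 peaks were shared. Among hrp48 peaks at least as wide as the Uextra median, 96.4% were shared. Another peak of the same list lay within 1 kb of 4.57% of hrp36 and 3.94% of hrp48 peaks, and within 100 kb of 95.4% and 97.0%, which follows from the distance chosen. No paired analysis was possible because each antibody had 1 list and no value per replicate, and for the same reason no replicate could be left out. Alternatives by score were not run, as the lists hold none.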
